A study of Mus musculus with 16 samples.

Results

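The mevalonate branch of cholesterol synthesis is the run of enzymes that leads from acetyl-CoA to squalene. Its members were chosen by name, as 9 genes: Acat2, Hmgcs1, Mvk, Pmvk, Mvd, Idi1, Fdps, Fdft1 and Ggps1. A member's value was the mean log2 intensity over the probe sets annotated to that gene alone, older symbols included. Of the 9 genes, 8 had such probe sets, out of 20848 genes in the whole array table, and Acat2 is not analysed here. The 8 measured enzymes were read by 70 probe sets, each covering about an exon, and the brightest probe set of every one of the 8 lay above the median of its array on all 16 arrays.

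The arrays measured RNA from resident peritoneal macrophages of C57BL/6 mice, that is, the phagocytes normally found in the belly cavity. KO cells carried the -/- genotype of Ogr1, a receptor at the cell surface that senses protons, and WT cells were +/+. The 4 groups were KO cells at pH 6.7, KO cells at pH 7.7, WT cells at pH 6.7 and WT cells at pH 7.7, with 4 arrays in each group, and all cells were kept for 24 h in RPMI medium with 10% FCS (fetal calf serum). The sample names give these pH values, whereas the treatment text gives 6.8 as acidic and 7.6 as control. The labels do not say how the knockout was made or whether each array stands for its own animal or a pool, so p-values measure the spread between these arrays, which may be technical. The transcript of Ogr1 is not analysed here, so the genotype labels were not checked against it.

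In this pathway acetyl-CoA is built up to HMG-CoA, which is reduced to mevalonate, and mevalonate is phosphorylated and decarboxylated to the isoprene unit from which farnesyl diphosphate, squalene and then sterols are made. Farnesyl diphosphate also feeds a side branch to geranylgeranyl diphosphate, the lipid that anchors many small GTPases in membranes. When sterols in the endoplasmic reticulum run low, the transcription factor SREBP-2 is released and raises the transcripts of most enzymes of the pathway together with those of sterol uptake. Macrophages both make cholesterol and take it up with the material they engulf.

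Promoter sequences are shown as background for 4 members. SREBP-2 is known to act at promoters, together with the factor NF-Y. Windows reaching from 250 bases before to 50 bases after the annotated start came from RefSeq on build GRCm38.p6. Fdps and Fdft1, both lower at pH 6.7 in both genotypes, had none, and the other 7 of the 9 genes had one. Of these 7, Hmgcs1, Mvk and Idi1 were lower at pH 6.7 in both genotypes, and Ggps1 did not pass the test in either. These 4 are shown, and the windows of Acat2, Pmvk and Mvd are not. The Hmgcs1 window is chr13:119690101-119690400 on the + strand, that of Mvk chr5:114444019-114444318 on the + strand, that of Idi1 chr13:8885356-8885655 on the + strand and that of Ggps1 chr13:14063439-14063738 on the - strand. Each is written 5′ to 3′ in the direction of the gene, and capitals mark matches to TCACNCCAC, a sterol regulatory element, and to CCAAT, the box bound by NF-Y, which reads ATTGG on the other strand.
Hmgcs1: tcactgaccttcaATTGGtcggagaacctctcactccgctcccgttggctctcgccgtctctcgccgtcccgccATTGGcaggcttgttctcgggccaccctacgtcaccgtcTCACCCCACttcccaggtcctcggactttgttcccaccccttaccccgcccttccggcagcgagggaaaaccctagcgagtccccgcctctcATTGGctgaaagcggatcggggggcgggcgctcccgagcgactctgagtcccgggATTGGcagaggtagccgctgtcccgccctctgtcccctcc
Mvk: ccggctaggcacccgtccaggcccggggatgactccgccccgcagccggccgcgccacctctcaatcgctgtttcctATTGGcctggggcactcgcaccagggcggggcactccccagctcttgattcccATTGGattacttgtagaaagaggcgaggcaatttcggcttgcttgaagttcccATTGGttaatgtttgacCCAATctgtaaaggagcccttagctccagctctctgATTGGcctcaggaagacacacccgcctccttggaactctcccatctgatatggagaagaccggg
Idi1: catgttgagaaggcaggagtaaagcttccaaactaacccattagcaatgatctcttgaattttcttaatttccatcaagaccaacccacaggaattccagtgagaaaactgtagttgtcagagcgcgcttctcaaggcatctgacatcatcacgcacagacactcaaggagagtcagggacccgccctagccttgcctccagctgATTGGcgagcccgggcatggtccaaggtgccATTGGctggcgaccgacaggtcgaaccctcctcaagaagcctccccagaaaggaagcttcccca
Ggps1: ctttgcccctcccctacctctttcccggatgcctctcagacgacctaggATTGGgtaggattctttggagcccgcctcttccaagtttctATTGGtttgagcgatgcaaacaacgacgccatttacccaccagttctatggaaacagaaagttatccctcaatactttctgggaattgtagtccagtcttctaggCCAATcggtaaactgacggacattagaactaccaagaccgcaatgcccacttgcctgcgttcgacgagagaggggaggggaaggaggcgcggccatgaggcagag

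Searched on both strands, TCACNCCAC was present in 1 of the 8 windows of the members and in 1.24% of all 32851 RefSeq windows of this length. Pmvk has 2 of these 8 windows, Acat2, whose RNA is not analysed here, has 1, and Fdps and Fdft1 are not covered. The match was TCACCCCAC in Hmgcs1, 137 bases before the start. CCAAT was found in 6 of the 8 windows, against 37.4% of all windows, and the Mvk window held 5 matches, which lay 173, 120, 67, 50 and 14 bases before the start. The GC box GGGCGG was found in 5 of the 8 windows, against 35.7% of all, and the E-box CACGTG in 0 of 8, against 7.15% of all. None of these motifs contains another. Ggps1, which did not pass the test, held 3 CCAAT matches as well. Whether SREBP-2, NF-Y or any of these matches played a part in the members' values was not tested.

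On the arrays, markers of macrophages were bright. Of the 8 macrophage markers looked up, Adgre1, Csf1r, Itgam, Cd14, Lyz2, Mertk and Cd68 lay above the array median on all 16 arrays and Fcgr1 on 14. WT pH 7.7 replicate 2 stood apart, with a median correlation with the other arrays of 0.883 over all probe sets, against 0.907 to 0.923 for the other 15, so the WT results are also given without it. On the linear scale the median intensities of the arrays ran from 8.14 to 8.61. Macrophage markers averaged 8.07 to 8.25 on the log2 scale in KO cells at pH 6.7, against 7.98 to 8.26 at pH 7.7. In WT cells they averaged 8.13 to 8.52 at pH 6.7, against 7.72 to 8.25 at pH 7.7. Without WT pH 7.7 replicate 2 the latter ran from 8.03 to 8.25. At pH 6.7 limma (adjusted p under 0.05) called 1 of the 8 lower in KO cells and 2 higher in WT cells. Over all genes tested, 2.67% were called lower in KO cells and 3.17% higher in WT cells.

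At pH 6.7, cells of both genotypes held less RNA of most mevalonate branch enzymes. In KO cells 6 of the 8 measured enzymes fell at pH 6.7 and 0 rose, while 2.67% of the 15770 genes tested were called lower and 4.86% higher. In WT cells 5 of the 8 fell and 0 rose, with 1.54% of all genes called lower and 3.17% higher. With WT pH 7.7 replicate 2 left out, Pmvk was called as well, which made 6 of 8 in WT cells, and 1.81% of all genes were called lower. The median log2 difference over the 8 members was -0.82 in KO cells and -0.84 in WT cells, where that over all genes tested was -0.01 and 0.01. In WT cells without WT pH 7.7 replicate 2 the members' median was -0.92. A gene counted as called when limma gave an adjusted p (Benjamini-Hochberg over all genes tested) under 0.05. In bulk RNA, fewer expressing cells and less RNA per cell cannot be told apart.

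**Figure D1:**
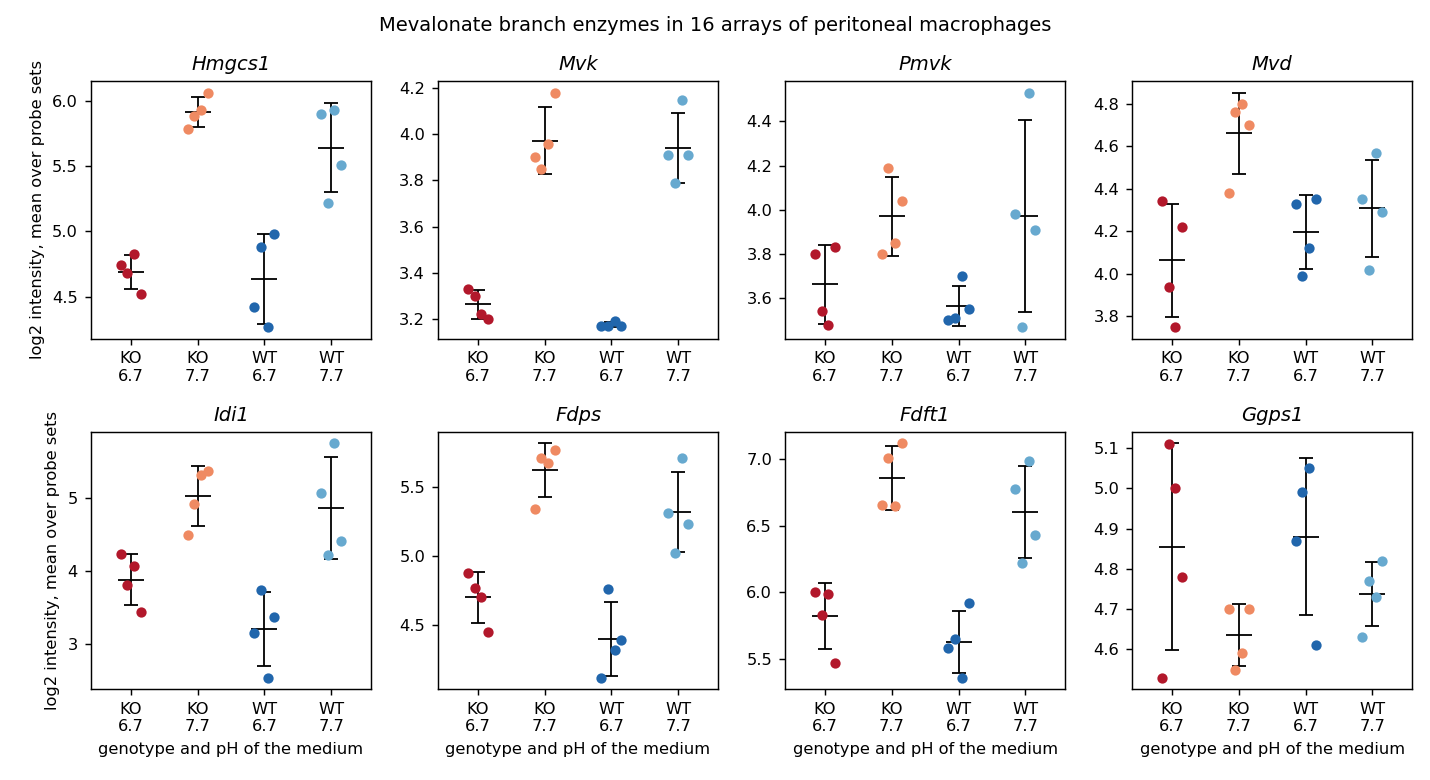
Mean log2 intensity of each of the 8 measured enzymes on the 16 arrays, 1 panel a gene with its own vertical axis, by genotype and pH of the medium. Points are arrays, horizontal bars group means and whiskers SDs (n = 4). For Hmgcs1, Mvk, Fdps and Fdft1 every pH 6.7 array of either genotype lies below every pH 7.7 array.

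Hmgcs1, the cytosolic HMG-CoA synthase, stands at the entry of the branch. In KO cells its log2 intensities were 4.74, 4.68, 4.83 and 4.52 at pH 6.7, against 5.78, 5.88, 5.93 and 6.06 at pH 7.7. In WT cells they were 4.42, 4.88, 4.27 and 4.98 at pH 6.7, against 5.90, 5.22, 5.93 and 5.51 at pH 7.7. The pH groups did not overlap in either genotype, and the WT arrays were more widely scattered than the KO arrays at both pH values. Hmgcs1 was 2.33-fold lower at pH 6.7 in KO cells, a log2 change of -1.22 ± 0.166 (SE; limma adjusted p = 0.000569). In WT cells it was 2.001-fold lower, a log2 change of -1.001 ± 0.166 (limma adjusted p = 0.00169), or -1.14 without WT pH 7.7 replicate 2. With the median over its 13 probe sets in place of the mean, the WT change was -0.76 and did not pass (limma adjusted p = 0.111).

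Mvk, Pmvk and Mvd act next, and turn mevalonate into isopentenyl diphosphate by 2 phosphorylations and a decarboxylation. Mvk, mevalonate kinase, had log2 intensities of 3.33, 3.30, 3.22 and 3.20 in KO cells at pH 6.7, against 3.90, 3.85, 3.96 and 4.18 at pH 7.7. In WT cells Mvk had 3.17, 3.17, 3.19 and 3.17 at pH 6.7, against 3.91, 3.79, 4.15 and 3.91 at pH 7.7. The gap between the pH groups was wide beside the scatter, and the 4 WT arrays at pH 6.7 were nearly identical. Only 8 of the 12 Mvk probe sets lay above the median brightness, so dim probe sets enter this mean. Tested one by one, 0 of these 8 were called in either genotype. The log2 change of Mvk was -0.71 ± 0.0957 in KO cells (1.63-fold lower, limma adjusted p = 0.000569). It was -0.76 ± 0.0957 in WT cells (1.70-fold lower, limma adjusted p = 0.000215), and -0.82 there without WT pH 7.7 replicate 2. With only the brightest of its 12 probe sets, Mvk no longer passed, at -0.27 in KO cells and -0.71 in WT cells (limma adjusted p = 0.427 and 0.0822).

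Pmvk, phosphomevalonate kinase, did not pass in either genotype. Its log2 intensities were 3.80, 3.54, 3.48 and 3.83 in KO cells at pH 6.7, against 3.80, 4.19, 3.85 and 4.04 at pH 7.7. WT cells had 3.50, 3.51, 3.70 and 3.55 at pH 6.7, against 3.98, 3.47, 4.53 and 3.91 at pH 7.7. The pH groups overlapped in both genotypes, in WT cells through the low value of pH 7.7 replicate 2 alone. The log2 change was -0.30 ± 0.165 in KO cells and -0.40 ± 0.165 in WT cells (limma adjusted p = 0.268 and 0.197). Without WT pH 7.7 replicate 2 the WT change was -0.57 and passed the threshold (limma adjusted p = 0.0389), and with the brightest probe set in place of the mean the KO change was -1.09 and passed (limma adjusted p = 0.0225).

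Mvd, diphosphomevalonate decarboxylase, passed in KO cells and not in WT cells. In KO cells it had log2 intensities of 4.34, 3.94, 3.75 and 4.22 at pH 6.7, against 4.38, 4.76, 4.80 and 4.70 at pH 7.7. In WT cells the values were 4.33, 3.99, 4.12 and 4.35 at pH 6.7, against 4.35, 4.02, 4.57 and 4.29 at pH 7.7. The KO groups came close to touching at 4.34 and 4.38, and the WT groups overlapped over most of their range. The log2 change was -0.60 ± 0.146 in KO cells (1.51-fold lower, limma adjusted p = 0.0203) and -0.11 ± 0.146 in WT cells (95% interval -0.42 to 0.20, limma adjusted p = 0.780), or -0.21 in WT cells without WT pH 7.7 replicate 2. The difference between these responses was -0.49 ± 0.206 and did not pass (limma unadjusted p = 0.0293, adjusted p = 0.343), so a difference between the genotypes was not shown. Leaving out single arrays ended the KO call in 4 of 16 cases, with an adjusted p of up to 0.066 in limma. These were the fits without KO pH 6.7 replicate 2 or 3 or KO pH 7.7 replicate 2 or 3. The fits without a WT array could not move the KO log2 change, only its error and adjusted p. The KO call was also lost with the median over the 11 probe sets (limma adjusted p = 0.082).

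Idi1, the isomerase that converts isopentenyl diphosphate to dimethylallyl diphosphate, had the lowest log2 fold change among the members in WT cells. In KO cells its log2 intensities were 4.23, 3.80, 4.07 and 3.43 at pH 6.7, against 4.49, 4.93, 5.33 and 5.38 at pH 7.7. In WT cells they were 3.15, 3.74, 2.53 and 3.37 at pH 6.7, against 5.08, 4.22, 5.76 and 4.41 at pH 7.7. The pH groups did not overlap in either genotype, though Idi1 was also the member with the widest scatter, with SDs of 0.350 to 0.701 within groups. Idi1 was 2.21-fold lower at pH 6.7 in KO cells, a log2 change of -1.15 ± 0.304 (limma adjusted p = 0.0296). In WT cells it was 3.19-fold lower, at -1.67 ± 0.304 (limma adjusted p = 0.00361), rank 6 from the lowest among the fold changes of all genes tested, and at -1.89 without WT pH 7.7 replicate 2. Leaving out single arrays ended the KO call in 6 of 16 cases (limma adjusted p up to 0.0937). These were the fits without KO pH 6.7 replicate 2, 3 or 4 or KO pH 7.7 replicate 2, 3 or 4. Here too the fits without a WT array could not move the KO log2 change. Of the 9 Idi1 probe sets, 3 carry numbers apart from the other 6 and may lie elsewhere in the genome, and without them the KO change was -1.03 (limma adjusted p = 0.0506). The KO call also ended with the median over the probe sets, at -1.27, and with an intensity trend and robust variances (limma adjusted p = 0.0623 and 0.0541).

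Fdps, farnesyl diphosphate synthase, joins the isoprene units into the last intermediate shared by sterols and prenyl groups. It had log2 intensities of 4.88, 4.77, 4.70 and 4.45 in KO cells at pH 6.7, against 5.34, 5.71, 5.67 and 5.77 at pH 7.7. In WT cells the values were 4.12, 4.76, 4.32 and 4.39 at pH 6.7, against 5.31, 5.02, 5.71 and 5.23 at pH 7.7. No pH 6.7 array of either genotype reached the lowest pH 7.7 array. The log2 change was -0.92 ± 0.155 in each genotype, which is 1.90-fold lower (limma adjusted p = 0.0021 in KO cells and 0.00181 in WT cells), and -1.02 in WT cells without WT pH 7.7 replicate 2. Taking the median over its 7 probe sets in place of the mean gave -1.61 in KO cells and -2.002 in WT cells, and the mean over its 5 bright probe sets gave -1.45 in WT cells. Its dimmer probe sets had smaller or opposite differences. With the brightest probe set alone Fdps missed the threshold at -0.96 in KO cells and -1.09 in WT cells (limma adjusted p = 0.0532 and 0.0612).

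Fdft1, squalene synthase, commits farnesyl diphosphate to sterols and closes the branch. In KO cells its log2 intensities were 6.00, 5.83, 5.99 and 5.47 at pH 6.7, against 6.66, 7.01, 6.65 and 7.12 at pH 7.7. WT cells had 5.58, 5.65, 5.36 and 5.92 at pH 6.7, against 6.78, 6.22, 6.99 and 6.43 at pH 7.7. All 8 arrays at pH 6.7 lay below all 8 at pH 7.7. Fdft1 was 2.05-fold lower at pH 6.7 in KO cells, at -1.04 ± 0.172 (limma adjusted p = 0.00199), and 1.97-fold lower in WT cells, at -0.98 ± 0.172 (limma adjusted p = 0.00284), or -1.11 without WT pH 7.7 replicate 2. A further 2 probe sets annotated to Fdft1 also carry another gene's symbol and were left out, and 1 of the 5 used carries a number apart from the rest.

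Ggps1, geranylgeranyl diphosphate synthase, leads to prenylated proteins and not to sterols. Its log2 intensities ran from 4.53 to 5.11 in KO cells at pH 6.7, against 4.55 to 4.70 at pH 7.7. In WT cells they ran from 4.61 to 5.05 at pH 6.7, against 4.63 to 4.82 at pH 7.7. The groups overlapped in both genotypes. The log2 change was 0.22 ± 0.122 in KO cells and 0.14 ± 0.122 in WT cells, and did not pass in either (limma adjusted p = 0.280 and 0.624), with 0.15 in WT cells when WT pH 7.7 replicate 2 was left out. The 95% intervals, -0.04 to 0.48 in KO cells and -0.11 to 0.40 in WT cells, lie above the changes of the 5 enzymes called in both genotypes.

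Read by overlap, 6 members in KO cells (Hmgcs1, Mvk, Mvd, Idi1, Fdps and Fdft1) had every pH 6.7 array below every pH 7.7 array, a pattern shown by 7.24% of all genes tested. In WT cells 5 members did (the same list without Mvd), against 3.45% of all genes. With the genotypes put together, 8 arrays against 8, Hmgcs1, Mvk, Fdps and Fdft1 were without overlap, against 0.59% of all genes. When that WT array was left out (WT pH 7.7 replicate 2), Pmvk joined the 5 in WT cells, against 7.13% of all genes, and Idi1 joined the 4 over both genotypes, against 0.964%. Hmgcs1, Mvk, Fdps and Fdft1 were also called in all 16 leave-one-out fits, in KO cells and in WT cells, as was Idi1 in WT cells. Leaving out an array of the other genotype cannot move a genotype's log2 change, only its error and adjusted p.

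Averaged over the genotypes, 6 of the 8 members fell at pH 6.7, against 3.77% of all genes called lower, and 0 rose, against 7.82% called higher. Mvk changed by -0.74 ± 0.0677 (limma adjusted p = 2.58e-06), Hmgcs1 by -1.11 ± 0.117 (limma adjusted p = 1.07e-05) and Idi1 by -1.41 ± 0.215 (limma adjusted p = 0.000341). Fdps fell by 0.92 and Fdft1 fell by 1.01 on the log2 scale (limma adjusted p = 3.05e-05 and 3.64e-05). These 5 span the branch from HMG-CoA synthesis to squalene. Mvd, at -0.35 ± 0.103, passed (limma adjusted p = 0.0317) but not in 9 of the 16 leave-one-out fits, at an adjusted p of up to 0.0689. The arrays that ended the Mvd call were KO pH 6.7 replicates 2 and 3, KO pH 7.7 replicates 2, 3 and 4, WT pH 6.7 replicates 2 and 3, and WT pH 7.7 replicates 1 and 3. The brightest probe set and the median over probe sets ended it too (limma adjusted p = 0.0641 and 0.160). Pmvk, at -0.35 ± 0.116, missed the threshold (limma adjusted p = 0.057). It passed without WT pH 7.7 replicate 2, at -0.44 (limma adjusted p = 0.00908), and in 5 of the 12 alternatives that keep all arrays.

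**Figure D2:**
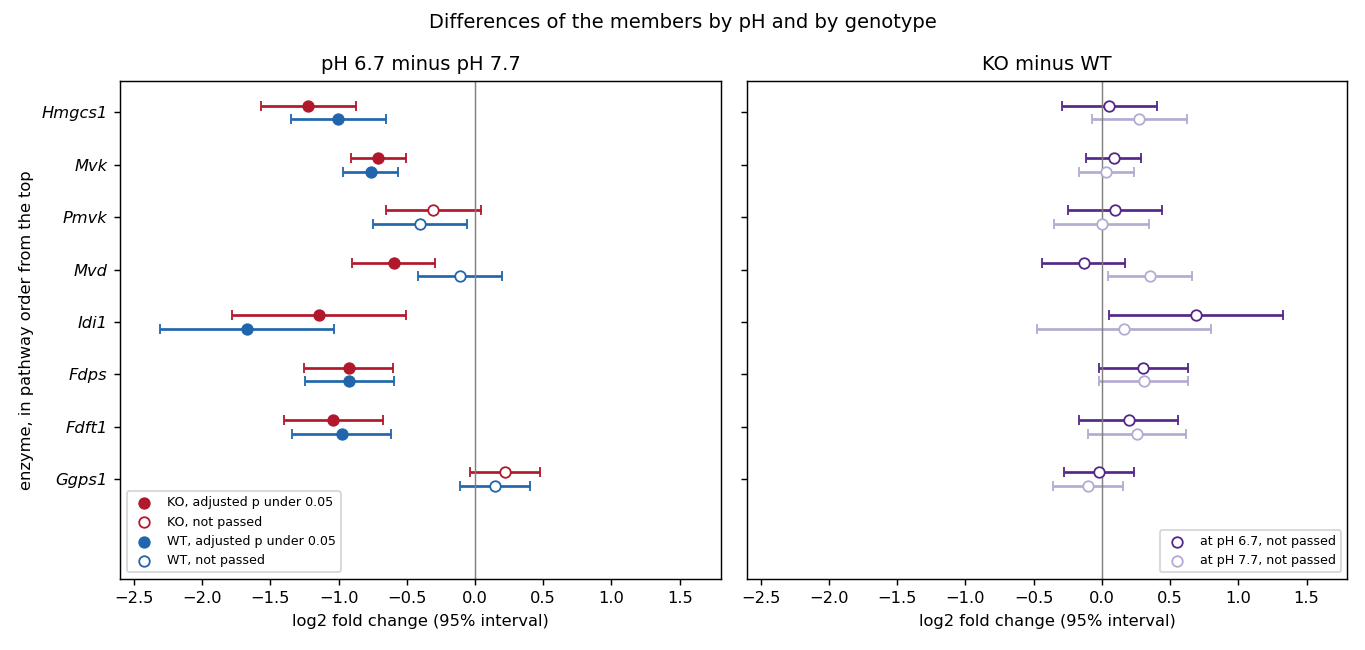
Log2 fold changes of the 8 enzymes with 95% intervals from limma, in pathway order from the top. The left panel gives pH 6.7 minus pH 7.7 for KO and WT cells and the right panel KO minus WT at each pH, and filled points passed an adjusted p of 0.05. Filled points lie left of 0 for 6 enzymes in KO cells and 5 in WT cells, and no point in the right panel is filled.

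The receptor genotype itself was compared in 3 ways: by the difference between the acid responses, and by KO minus WT at each pH. Of the 8 members, 0 passed in the test of the difference between responses, where limma called 0.0698% of all genes, and 1 member (Mvd) had an unadjusted p under 0.05, as had 12.4% of all genes. At pH 6.7, 0 of 8 passed for KO minus WT, with 0.0254% of all genes called, and at pH 7.7 0 of 8 passed, with 0% of all genes called. At an unadjusted p under 0.05, 1 member was below the threshold at pH 6.7 (Idi1, 11.4% of all genes) and 1 at pH 7.7 (Mvd, 8.08% of all genes). In any of the 3 comparisons 0 of 8 passed without WT pH 7.7 replicate 2 as well. In that fit Idi1 at pH 6.7 was the 1 member under an unadjusted p of 0.05, as were 12.7% of all genes. For the difference between responses and at pH 7.7, 0 members were, against 13.9% and 7.98% of all genes.

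The intervals of the difference between responses show how large a difference could have gone unseen. For Mvk it was 0.0567 (95% interval -0.23 to 0.34), for Fdps -0.0027 (-0.46 to 0.46), for Fdft1 -0.0613 (-0.57 to 0.45) and for Hmgcs1 -0.22 (-0.71 to 0.27). That of Idi1 was the least certain, at 0.53 (-0.38 to 1.43), or 0.74 (-0.16 to 1.64) without WT pH 7.7 replicate 2. Leaving that array out moved the difference to 0.11 (-0.17 to 0.39) for Mvk, 0.0964 (-0.36 to 0.55) for Fdps, 0.0663 (-0.43 to 0.56) for Fdft1 and -0.0804 (-0.54 to 0.38) for Hmgcs1. Missing the threshold therefore does not show that KO and WT cells responded alike.

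At pH 6.7, Idi1 averaged 3.88 ± 0.350 in KO cells and 3.20 ± 0.505 in WT cells (SD, n = 4 each), a log2 difference of 0.69 ± 0.304 (limma adjusted p = 0.397). Fdps averaged 4.70 ± 0.180 in KO cells and 4.40 ± 0.266 in WT cells (SD, n = 4 each), a log2 difference of 0.30 ± 0.155 (limma adjusted p = 0.467). Mvk was the only member whose genotypes did not overlap at pH 6.7, with 4.76% of all genes higher in KO cells in this way, yet its difference was 0.09 ± 0.0957 (limma adjusted p = 0.757). At pH 7.7, Mvd averaged 4.66 ± 0.194 in KO cells and 4.31 ± 0.227 in WT cells (SD, n = 4 each), a log2 difference of 0.35 ± 0.146 (limma adjusted p = 0.559), or 0.26 without WT pH 7.7 replicate 2. All 8 members overlapped between the genotypes at pH 7.7, where 1.08% of all genes were lower and 2.37% higher in KO cells without overlap, and all 8 overlapped without WT pH 7.7 replicate 2 as well.

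Single probe sets along the genes mostly pointed one way. In KO cells 64 of the 70 member probe sets had a negative log2 difference between pH 6.7 and pH 7.7, and in WT cells 58 of 70. Among the 57 above the median brightness, 53 were negative in KO cells and 50 in WT cells, where 47.1% and 44.9% of all 120788 probe sets above that brightness were negative. In WT cells 50 of the 57 were negative without WT pH 7.7 replicate 2 too, against 50.1% of all. Tested one by one in limma, 12 of the 57 fell in KO cells, with 0.503% of all tested probe sets called lower, and 6 of 57 fell in WT cells, with 0.108% of all. None of the 57 rose in either genotype, where 0.791% of all tested probe sets rose in KO cells and 0.315% in WT cells. These counts depend on single arrays, from 4 (without KO pH 6.7 replicate 4) to 15 (without WT pH 7.7 replicate 2) in KO cells and from 1 (without WT pH 6.7 replicate 3 or WT pH 7.7 replicate 3) to 7 (without WT pH 7.7 replicate 2) in WT cells. The share of all probe sets called was not taken in the fits without 1 array.

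For Hmgcs1 all 13 probe sets were negative in both genotypes, with differences of -1.72 to -0.54 in KO cells and -1.63 to -0.19 in WT cells. All 9 Idi1 probe sets and all 5 Fdft1 probe sets were negative in both genotypes as well, and the 5 of Fdft1 lay close together, at -1.41 to -0.89 in KO cells and -1.09 to -0.82 in WT cells. Mvd differed along the gene: 10 of its 11 probe sets were negative in KO cells and 6 of 11 in WT cells. Fdps had 7 of 7 negative in KO cells and 6 of 7 in WT cells, where its dim probe sets reached 1.35. Ggps1 had 4 of 7 negative in KO cells and 2 of 7 in WT cells, with a median difference of -0.10 in KO cells and 0.03 in WT cells, so in KO cells its mean lay above 0 and its median probe set below 0.

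**Figure D3:**
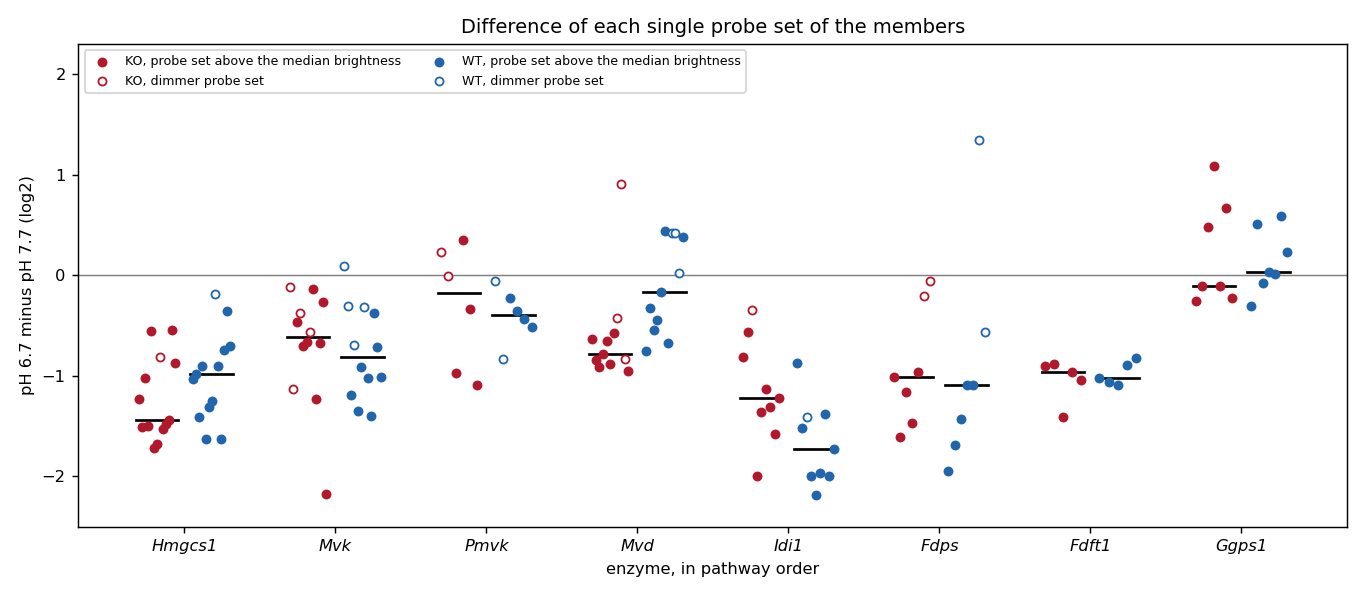
Log2 difference, pH 6.7 minus pH 7.7, of each of the 70 single probe sets of the 8 enzymes, with KO left of WT for each gene. Filled points are probe sets above the median brightness, open points dimmer ones, and bars the median per gene. Every Hmgcs1, Idi1 and Fdft1 point lies below 0, while those of Ggps1 lie on both sides.

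Across the 16 arrays the members kept company with each other, apart from Ggps1. As a description over arrays that share their pH groups, Pearson's r of each member with the mean of the other members (each scaled over the arrays) was 0.956 for Fdps, 0.945 for Fdft1, 0.936 for Mvk, 0.932 for Hmgcs1 and 0.915 for Idi1. It was lower for Pmvk, at 0.760, and Mvd, at 0.636, and was -0.628 for Ggps1. With the group means taken out, so that the mean differences between the groups no longer contribute, r was 0.808 for Fdps, 0.786 for Mvk, 0.757 for Idi1, 0.705 for Fdft1, 0.645 for Hmgcs1, 0.637 for Pmvk, 0.319 for Mvd and -0.384 for Ggps1 (n = 16 arrays). Without WT pH 7.7 replicate 2, the lowest array of its group for 7 members, these within-group values were 0.784 for Fdps, 0.720 for Mvk, 0.706 for Idi1, 0.591 for Fdft1, 0.453 for Hmgcs1, 0.416 for Pmvk, 0.0741 for Mvd and -0.451 for Ggps1 (n = 15 arrays). Fdps, Mvk, Idi1 and Fdft1 thus kept the closest company within groups, and Mvd showed little of it.

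The tested genes outside the branch whose pattern over the 16 arrays was most like the scaled mean of the members were Lss, with r = 0.978, Qpct (0.950), Cyp51 (0.940), Msmo1 (0.938), Fasn (0.938), Sqle (0.934), Washc5 (0.931) and Pea15a (0.926). Lss, Cyp51, Msmo1 and Sqle belong to the later steps of cholesterol synthesis, and Fasn is the fatty acid synthase. With group means taken out, r over the 16 arrays was 0.922 for Msmo1, 0.885 for Lss, 0.799 for Qpct, 0.759 for Cyp51, 0.745 for Washc5, 0.717 for Fasn, 0.657 for Sqle and 0.517 for Pea15a. They ran from 0.278 for Pea15a to 0.870 for Msmo1 without WT pH 7.7 replicate 2. Pea15a was lowest, while Qpct and Washc5, which are not enzymes of sterol or fatty acid synthesis either, lay among the others. All these arrays share the contrast of pH, so r describes likeness only.

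The enzymes after squalene carry it to cholesterol. Of 11 tested, 7 fell at pH 6.7 in KO cells, 5 fell in WT cells, and 0 rose in either. Over all genes tested, 2.67% were called lower and 4.86% higher in KO cells, and 1.54% lower and 3.17% higher in WT cells. The median log2 difference of the list was -0.77 in KO cells and -0.65 in WT cells. Sqle, squalene epoxidase, changed by -1.49 ± 0.236 in KO cells and -1.21 ± 0.236 in WT cells (limma adjusted p = 0.00138 and 0.00589), or -1.33 in WT cells without WT pH 7.7 replicate 2. Lss, lanosterol synthase, changed by -1.28 ± 0.165 in KO cells and -1.10 ± 0.165 in WT cells (limma adjusted p = 0.000421 and 0.000768), or -1.24 in WT cells without that array. These were the first by p in KO cells, followed by Hsd17b7 at -1.23 and Nsdhl at -0.77. In WT cells the order by p was Lss, then Cyp51, the lanosterol demethylase, at -1.64, then Msmo1, a sterol methyl oxidase, at -0.93, and then Sqle. Cyp51 had -1.87 and Msmo1 -1.08 in WT cells without WT pH 7.7 replicate 2. Without WT pH 7.7 replicate 2 the counts were 8 of 11 in KO cells and 6 of 11 in WT cells, against 3.21% and 1.81% of all genes called lower.

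Among genes of sterol sensing and uptake a few were called. Of 10 tested, 3 fell in KO cells and 1 in WT cells, and 0 rose. Over all genes tested, 2.67% were called lower in KO cells and 1.54% in WT cells. The 1 call in WT cells is too few to read as a result about the list. The list's median was -0.19 in KO cells and -0.05 in WT cells. Stard4, a carrier of sterols in the cytosol, changed by -0.85 ± 0.186 in KO cells and -0.79 ± 0.186 in WT cells (limma adjusted p = 0.0117 and 0.0205), or -0.87 in WT cells without WT pH 7.7 replicate 2. Insig1, which holds SREBP in the endoplasmic reticulum and is itself a target of it, changed by -0.80 in KO cells (limma adjusted p = 0.0158) and had -0.64 in WT cells (limma adjusted p = 0.0571). Srebf2, the gene of SREBP-2, changed by -0.50 in KO cells (limma adjusted p = 0.0295) and had -0.42 in WT cells (limma adjusted p = 0.0807). The counts without WT pH 7.7 replicate 2 were 3 in KO cells and 2 in WT cells, where Insig1 joined Stard4 at -0.82 and Srebf2 had -0.49 (limma adjusted p = 0.0122 and 0.0595). Over all genes, 3.21% were then called lower in KO cells and 1.81% in WT cells.

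Fatty acid synthesis shares its regulation by SREBP in part. Of 7 tested genes 2 fell in KO cells and 3 in WT cells, against 2.67% and 1.54% of all genes called lower. The medians of the list were -0.39 in KO cells and -0.47 in WT cells. Fads2, a fatty acid desaturase, changed by -2.15 ± 0.238 in KO cells and -1.19 ± 0.238 in WT cells (limma adjusted p = 0.000167 and 0.00688). Fasn changed by -1.005 in KO cells and -0.67 in WT cells (limma adjusted p = 0.00118 and 0.0171), and Fads1 passed in WT cells at -0.53 (limma adjusted p = 0.0205). The difference between the responses of Fads2 was -0.96 ± 0.336 and did not pass (limma adjusted p = 0.258). The counts of this list were 2 in KO cells and 3 in WT cells without WT pH 7.7 replicate 2 as well, with Fads2 at -1.26, Fasn at -0.73 and Fads1 at -0.61 in WT cells and a response difference of -0.89 for Fads2.

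Targets of the sterol receptor LXR and genes of cholesterol efflux had 1 or 2 calls in a direction, set against 2.67% of all genes lower and 4.86% higher in KO cells and 1.54% and 3.17% in WT cells, too few to read as a result about the list. In KO cells 1 of 10 fell (Scd2, a stearoyl-CoA desaturase, at -1.08) and 1 rose (Mylip, which marks the LDL receptor for degradation, at 0.42). In WT cells 1 fell (Scd2, at -0.84) and 2 rose (Abca1, the cholesterol exporter, at 0.56, and Smpdl3a at 0.40). Without WT pH 7.7 replicate 2 neither Abca1 nor Smpdl3a was called in WT cells, where 0 then rose and Scd2 had -0.98. The list's median was -0.03 in KO cells and 0.04 in WT cells.

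Genes on either side of the branch follow. Among the 16 tested users of isoprenoids (prenyl transferases, dolichol and ubiquinone synthesis), Rabggta fell in KO cells at -0.31 and Nus1 rose in WT cells at 0.42, and the medians were 0.01 in KO cells and -0.02 in WT cells. These calls of 1 in 16 stand against 2.67% of all genes lower in KO cells and 3.17% higher in WT cells. Of the 5 tested genes of acetyl-CoA supply and ketone bodies, 0 were called in either genotype by limma, with 4 under an unadjusted p of 0.05 in KO cells, as had 24.1% of all genes, and 1 in WT cells, as had 17.2%. Averaged over the genotypes 2 of the 5 were called, Oxct1, an enzyme of ketone body use, lower at -0.29 and Acat1, the mitochondrial thiolase, higher at 0.31 (limma adjusted p = 0.013 and 0.025). In that average, 3.77% of all genes were called lower and 7.82% higher. Without WT pH 7.7 replicate 2 the isoprenoid users had the same counts, while Oxct1 was called lower in both genotypes and Acat1 higher in KO cells. In that fit 3.21% of all genes were called lower and 5.98% higher in KO cells. The shares in WT cells were 1.81% lower and 1.9% higher. Such single calls are too few to read as a result about these lists. No gene of these lists passed in the test of the difference between the responses of KO and WT cells.

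**Figure D4:**
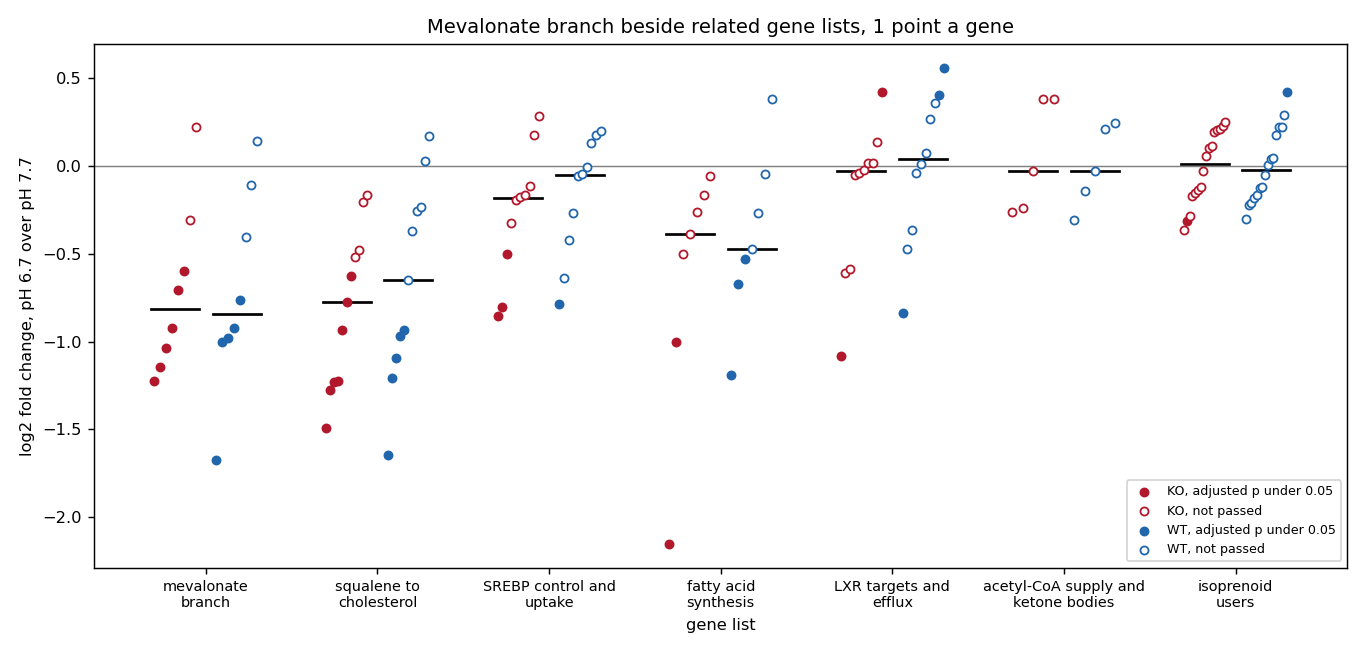
Log2 fold change, pH 6.7 over pH 7.7, of each tested gene of the mevalonate branch and of 6 related lists, with KO left of WT in each list. Filled points passed an adjusted p of 0.05 in limma, and bars are list medians. The medians of the branch and of the squalene to cholesterol enzymes lie between -0.84 and -0.65, and those of the LXR, acetyl-CoA and isoprenoid lists lie within 0.05 of 0.

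Markers of other cells and of macrophage subsets were read on the same arrays. Large peritoneal macrophage markers (6 of 6 measured) averaged 6.22 to 6.54 in KO cells at pH 6.7, against 6.02 to 6.33 at pH 7.7. In WT cells they averaged 6.11 to 6.69 at pH 6.7, against 5.76 to 6.04 at pH 7.7, a difference of 0.50 without overlap (exact permutation test, 2-sided, p = 0.0286, the smallest that 4 against 4 arrays allow). The difference was 0.46 without WT pH 7.7 replicate 2 (exact permutation p = 0.0571). It lay mostly in Selp, which rose by 2.55 in WT cells (limma adjusted p = 5.24e-05) and was the 1 of the 6 called there, while Prg4 had -0.40 and the median over the 6 was 0.27. Without Selp, left out after its value was seen, the average of the other 5 differed by 0.0927 in WT cells and 0.0303 in KO cells. Mast cell markers (7 of 7 measured) averaged 2.20 to 2.68 in KO cells at pH 6.7, against 2.77 to 3.25 at pH 7.7, a difference of -0.45 (exact permutation p = 0.0286). In WT cells they averaged 2.21 to 4.31 at pH 6.7, against 1.99 to 2.79 at pH 7.7, a difference of 0.65 in the other direction (exact permutation p = 0.229), or 0.51 without WT pH 7.7 replicate 2 (exact permutation p = 0.514). Mesothelial and fibroblast markers (8 of 8 measured, Krt19 above the median on 0 arrays) averaged 2.08 to 2.24 in KO cells at pH 6.7, against 2.32 to 2.41 at pH 7.7 (exact permutation p = 0.0286), and 2.26 to 2.41 against 2.22 to 2.33 in WT cells (exact permutation p = 0.343, and 0.343 also without that array).

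B cell markers (5 of 6 measured) averaged 2.70 to 2.95 in KO cells at pH 6.7, against 2.74 to 3.67 at pH 7.7, and 2.74 to 3.98 in WT cells at pH 6.7, against 2.62 to 3.12 at pH 7.7, or 2.62 to 2.68 without WT pH 7.7 replicate 2. Small peritoneal macrophage markers averaged 4.98 to 5.51 in KO cells at pH 6.7, against 5.43 to 5.76 at pH 7.7, and 5.34 to 5.91 in WT cells at pH 6.7, against 4.57 to 5.71 at pH 7.7, or 5.21 to 5.71 without that array. Of the 6 neutrophil markers, S100a8 and Camp lay above the array median on all 16 arrays, at 4.06 and 0.837 above it on average on the log2 scale, and S100a9 and Ly6g on 0. Of the 6 dendritic cell markers, Zbtb46 and Cd209a lay above it on all 16 arrays, at 4.11 and 4.41 above, and Xcr1 on 0. Of the 4 eosinophil markers 0 were above it on all arrays, and Ccr3 was above it on 0. The part of these cells in the results on the branch was not tested.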

How the data were processed

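The members and gene lists were chosen with earlier results of these data known. The authors deposited linear intensities, 1 for each probe set on each array, from 0.88 to 5510. Per the submitters' processing notes these are RMA values from R 2.15.2. Labelled cRNA was made by the Affymetrix protocol, per the labels' protocols. The 16 table columns all matched a labelled sample and 0 pairs were identical. The platform annotation gives a single gene symbol for 213361 of the 241576 probe sets, several for 5107 and no entry for 23108, and only the first kind was used. Of 20893 symbols 18496 were current in RefSeq's gene table (GRCm38.p6, used for names) and 2354 were updated through synonyms, giving 20848 genes with a median of 8 probe sets.

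Log2 of the deposited intensity was taken, since the design had assumed log2 values, and averaged per gene. Genes were tested if their brightest probe set exceeded the array median (the 50th percentile) on 4 arrays or more, and 15770 did. Group means over all 16 arrays were fitted with limma 3.58.1 (R 4.3.3; lmFit, eBayes, Benjamini-Hochberg within each of 6 comparisons, 2-sided, threshold 0.05). Errors of fold changes are SEs from this fit. Single probe sets were tested likewise if their mean lay above the median. The steps were tested on simulated data. The number of arrays limits the precision. No detection call or batch label was used. Named were all members, up to 4 genes per list by p (further genes where the calls shifted, chosen after their values were seen) and the 8 genes most alike in pattern, without predicted genes. Alternatives covered the gene value, filter, normalization, variance model, array weights, replicate number as a block, the groups fitted and leaving out each array; leaving out probe sets numbered apart, and list, marker, overlap and correlation values without 1 array, were added after seeing the data.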

Additional observations from a re-analysis of the deposited data

Results flagged for a closer look

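Of the 72 sets of 4 arrays examined (8 members and 10 marker lists in 4 groups), 4 held an array far from the other 3, by Dixon's ratio of gap to range at its 95% critical value, which chance exceeds in about 1 set in 20. None was a member of the mevalonate branch. Small peritoneal macrophage markers averaged 4.98 on KO pH 6.7 replicate 2, below 5.42 to 5.51 on the others of that group. T and NK cell markers averaged 2.1 on KO pH 7.7 replicate 4, above 1.97 to 1.99. B cell markers averaged 3.12 on WT pH 7.7 replicate 2, above 2.62 to 2.68, on the array that also correlated least with the rest and lay lowest of its group for Hmgcs1, Mvk, Pmvk, Mvd, Idi1, Fdps and Fdft1. Mesothelial and fibroblast markers averaged 2.22 on WT pH 7.7 replicate 4, below 2.31 to 2.33. The part of these arrays' marker levels in the members' values was not tested.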

How the results depend on the processing

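Over the 13 alternatives other than leaving out single arrays, the count of members called at pH 6.7 ran from 4 to 6 in KO cells. In WT cells it ran from 3 to 5 (3 with the brightest probe set). These 13 include a fit of only the groups compared, while the others keep all arrays. Averaged over the genotypes, where 12 alternatives applied, the count ran from 5 to 7. Without 1 array it ran from 4 to 6 in KO cells, 5 to 6 in WT cells and 5 to 7 averaged, and no member was called for genotype or for the difference between responses in any fit. No member called at pH 6.7 changed sign. The replicate numbers did not pair the arrays (24 same-numbered pairs, r -0.25 to 0.225, 3 over 0.1), and a replicate block kept 6 members in KO cells and 5 in WT cells, with 6 and 3 probe sets called. With no filter 7 probe sets were called in KO cells and 1 in WT cells, and with quantile normalization 10 in WT cells. Without 1 array 4 to 15 were called in KO cells and 1 to 7 in WT cells. The share of all probe sets called was taken in the main fit only. These counts therefore do not show whether the members' probe sets or all probe sets shifted. Calls over all genes, 1188 in KO cells and 743 in WT cells (67.3% higher), became 595 and 189 with the brightest probe set, 442 and 337 with the median, 314 in WT cells with only the groups compared, 1788 in KO cells with array weights, 828 (54.8% higher) in WT cells with quantile normalization, and 553 to 1449 and 475 to 722 without 1 array. Uncalled values changed sign as follows. With the brightest probe set, Ggps1 in KO cells had -0.22, the responses' difference was -0.58 for Pmvk, 0.13 for Fdps, 0.18 for Fdft1 and -0.46 for Ggps1, and KO minus WT was -0.12 for Pmvk and 0.0354 for Mvd at pH 6.7 and -0.0935 for Mvk and 0.46 for Pmvk at pH 7.7. With the median, the responses' difference was 0.39 for Fdps and -0.0936 for Ggps1, and KO minus WT was -0.20 for Hmgcs1 at pH 6.7 and -0.073 for Idi1 and 0.091 for Ggps1 at pH 7.7. With bright probe sets only, Pmvk had a responses' difference of -0.13 and KO minus WT of -0.0809 at pH 6.7 and 0.0498 at pH 7.7, and Fdps a responses' difference of 0.21. For Fdps that difference was 0.033 with centring, 0.0153 with quantile normalization and 0.0174 with array weights, where that of Fdft1 was 0.0117. Without 1 array the responses' difference ran from -0.19 to 0.0663 for Fdft1, -0.13 to 0.12 for Fdps, -0.0129 to 0.18 for Ggps1, -0.013 to 0.12 for Mvk and -0.0874 to 0.27 for Pmvk, KO minus WT at pH 6.7 from -0.11 to 0.0847 for Ggps1 and -0.0683 to 0.17 for Hmgcs1, and at pH 7.7 from -0.0524 to 0.46 for Idi1, -0.0367 to 0.10 for Mvk and -0.17 to 0.18 for Pmvk. The cause of these changes was not tested.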
